A study of Homo sapiens with 18 samples.

Results

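The genes for the receptors of glutamate, GABA and glycine were followed in human pluripotent stem cells (PSCs) with and without PCGF6. They were picked out by a rule on symbols, set with earlier results of these data known. For glutamate they were the subunits of the AMPA, kainate, NMDA and delta receptors (GRIA, GRIK, GRIN and GRID) and the metabotropic receptors (GRM). For GABA they were the alpha, beta, gamma and delta subunits of the GABA-A receptor (GABRA, GABRB, GABRG and GABRD) and the GABA-B receptor (GABBR). For glycine they were the receptor subunits GLRA and GLRB. The rule found 46 genes of the 57133 in the count table. The cells were PGP1, an established human induced PSC line, cultured in mTeSR1 medium on Matrigel. The authors report aberrant gene expression and partial differentiation of the PCGF6-KO cells. RNA-seq was performed on the unedited line (WT, 2 libraries) and on the lines labelled PCGF6KO1 (clone 1, 2 libraries) and PCGF6KO2 (clone 2, 2 libraries). In each clone CRISPR-Cas9 with a pair of guide RNAs had removed part of the first exon of PCGF6 from both alleles, and each clone was grown from a single cell. PCGF6 belongs to the non-canonical Polycomb complex PRC1.6, and the comparison asks which genes change when it is lost from PSCs. A clone is a single editing event, and nothing in the labels says whether the libraries of a line came from separate cultures, so p-values measure the spread between these libraries.

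PCGF6 itself had 268 and 300 counts in the WT libraries, 99 and 103 in those of clone 1 and 187 and 159 in those of clone 2, a log2 fold change of −1.15 in PCGF6-KO against WT (standard error, SE, 0.27, adjusted p = 0.00914). Without WT replicate 1 or WT replicate 2 this call was lost (adjusted p up to 0.0763). The libraries held 15877396 to 18918609 counts, of which the 46 receptor genes took 10855 to 13074, or 0.0611 to 0.0785%. Of 8 pluripotency markers, which summed to 6268 and 6543 TPM (counts per length, scaled to a fixed total per library) in WT and 5192 to 5768 in PCGF6-KO, 2 were called lower and 6 were not called. The cells also differed in markers of other cell types, and their part in the results below was not tested. All 10 mesendoderm markers tested were called higher, where 14.9% of all genes tested were. The 11 listed summed to 8.91 to 11.6 TPM in WT and 1229 to 1599 in PCGF6-KO. MESP1, SOX17 and HAND1 had 0 counts in both WT libraries. Of 16 neuron markers, 5 were called higher and 5 lower (62.5% called, against 23.6% of all genes tested). Their sum was 314 to 327 TPM in WT and 592 to 646 in PCGF6-KO. No neuron marker was at 0 in either genotype. Of 8 neuroectoderm markers tested, 4 were called higher and 2 lower (11 listed, 933 to 976 TPM in WT and 803 to 1038 in PCGF6-KO), and HES5 was at 0 counts in WT. In bulk RNA, fewer cells that express a gene and less RNA per cell cannot be told apart.

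Glutamate is the main excitatory transmitter of the brain, and GABA and glycine are the main inhibitory ones. AMPA, kainate and NMDA receptors are cation channels that open when glutamate binds, and GABA-A and glycine receptors are pentameric chloride channels. Metabotropic glutamate receptors and the GABA-B receptor act through G proteins. Which subunits a cell makes sets the speed, the ion selectivity and the pharmacology of its receptors. Undifferentiated PSCs form no synapses, and several of these genes, among them those of the GABA-A receptor, are known to be transcribed in them.

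To show the regions from which members with clear differences start, the 250 bases before a RefSeq start were taken for genes called in the comparison below, where RefSeq gave a start and no exon of the gene itself overlapped the window in GENCODE 44. Other called genes also had such windows, and GRIK2, GRM3 and GRIN2D (lower in PCGF6-KO) and GABBR2 (higher) were picked as examples. Their windows are printed 5′ to 3′ on the gene's strand. Capitals mark each CG dinucleotide, because CG-rich promoters are the usual sites of Polycomb complexes. The build is GRCh38.p14.
GRIK2 (chr6:101393458-101393707, forward strand): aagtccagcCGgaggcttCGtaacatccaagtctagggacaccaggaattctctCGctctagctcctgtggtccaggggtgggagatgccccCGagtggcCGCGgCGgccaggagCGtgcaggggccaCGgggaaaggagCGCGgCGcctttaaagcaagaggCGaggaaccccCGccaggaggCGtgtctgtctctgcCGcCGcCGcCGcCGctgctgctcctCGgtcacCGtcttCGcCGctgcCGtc
GRM3 (chr7:86643659-86643908, forward strand): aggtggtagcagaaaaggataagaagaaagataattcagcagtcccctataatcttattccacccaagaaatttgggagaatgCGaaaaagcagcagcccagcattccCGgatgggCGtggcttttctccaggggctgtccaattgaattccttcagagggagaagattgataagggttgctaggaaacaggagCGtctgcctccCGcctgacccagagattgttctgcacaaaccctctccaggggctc
GRIN2D (chr19:48393418-48393667, forward strand): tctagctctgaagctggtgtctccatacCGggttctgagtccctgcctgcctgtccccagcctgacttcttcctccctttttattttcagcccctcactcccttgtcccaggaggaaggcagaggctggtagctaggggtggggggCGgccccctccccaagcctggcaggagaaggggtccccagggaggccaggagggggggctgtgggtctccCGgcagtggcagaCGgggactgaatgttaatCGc
GABBR2 (chr9:98708936-98709185, reverse strand): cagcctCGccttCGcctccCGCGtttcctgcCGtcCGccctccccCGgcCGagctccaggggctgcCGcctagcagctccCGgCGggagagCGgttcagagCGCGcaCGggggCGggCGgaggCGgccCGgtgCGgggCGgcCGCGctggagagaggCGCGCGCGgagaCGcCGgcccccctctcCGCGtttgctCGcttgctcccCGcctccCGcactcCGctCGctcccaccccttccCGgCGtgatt
The windows before GRM3, GRIN2D and GABBR2 lie just outside the gene. The GRIK2 window lies in an intron of the gene in GENCODE 44, where an earlier start is annotated. The GRIK2 window held 25 CG dinucleotides and that of GABBR2 held 38, more than 78.4% and 96.7% of all promoter windows. GRM3 and GRIN2D had 5 each, more than 34.3% of all windows. A further GRIK2 window, which overlaps an exon of the gene, had 9. So genes that were lower in PCGF6-KO had windows both rich and poor in CG. Genes called higher did too, with 22 before GLRA3 and 5 before a start of GRIA1. Over all their windows, genes called higher and genes called lower both had a median of 9. RefSeq gave windows for 32 of the 46 genes, 50 windows in all. Their median was 11 CG dinucleotides, the same as the median of 11 over 35116 windows of 27305 genes.

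PRC1.6 holds MAX and E2F6, which recognise the E-box CACGTG and the motif GCGGGAA. Searched on both strands, the E-box was in 1 of the 50 receptor windows (2%) and in 6.34% of all windows, and GCGGGAA was in 4 of 50 (8%) and in 5.52% of all windows. Neither motif overlaps the other. Among genes called in PCGF6-KO, 1 window held each motif, shown here in capitals with 10 bases on either side.
GRM4, E-box, 77 bases before a start within the gene, reverse strand (chr6:34146149-34146174): gggcatacgcCACGTGcgcgcggatg
GRIK4, GCGGGAA read on the other strand, 230 bases before a start, forward strand (chr11:120511508-120511534): gcccccgccgTTCCCGCcgcccccgcc
A match is a run of letters and says nothing of binding. Both genes were lower in PCGF6-KO.

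Of the 46 genes, 39 had enough counts to be tested between PCGF6-KO (4 libraries) and WT (2 libraries). The test was edgeR's quasi-likelihood test, with p-values adjusted after Benjamini-Hochberg over all 17672 genes tested. Called genes had an adjusted p under 0.05 and differed by more than 0.6 on the log2 scale. The test called 22 receptor genes (56.4% of 39), 8 higher and 14 lower in PCGF6-KO, where it called 23.6% of all genes tested, 14.9% higher and 8.70% lower. The median log2 fold change was −0.38 over the 39 receptor genes and 0.00 over all genes, and −0.41 and −0.03 under upper-quartile scaling. Glutamate receptor genes were mostly lower, with 2 of 23 called higher and 11 lower and a median of −0.70. GABA and glycine receptor genes went both ways, with 6 of 16 called higher and 3 lower and a median of 0.39. Some genes enter the test through the genotype in which they are high. Of the called members, GABRD, GRIK2 and GRM3 had enough counts in WT alone, and GLRA3 and GLRA4 in PCGF6-KO alone. Among the 30 members that pass in both genotypes the test called 17 (56.7%), against 20.5% of all such genes. Without WT replicate 1 the test called fewer receptor genes, and the share of all genes called was not computed for that fit.

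All 4 PCGF6-KO libraries were higher than both WT libraries in CPM (counts-per-million, scaled by TMM) for 13 members and lower for 21, and the groups overlapped for 5. The 22 called members were all among those without overlap, which mostly follows from the call itself and adds no support. Over all tested genes, 29.5% were higher and 27.6% lower without overlap. With 4 libraries against 2, an exact permutation test of a single gene cannot reach a p of 0.05, so the calls rest on the spread that edgeR estimates across genes.

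**Figure D1:**
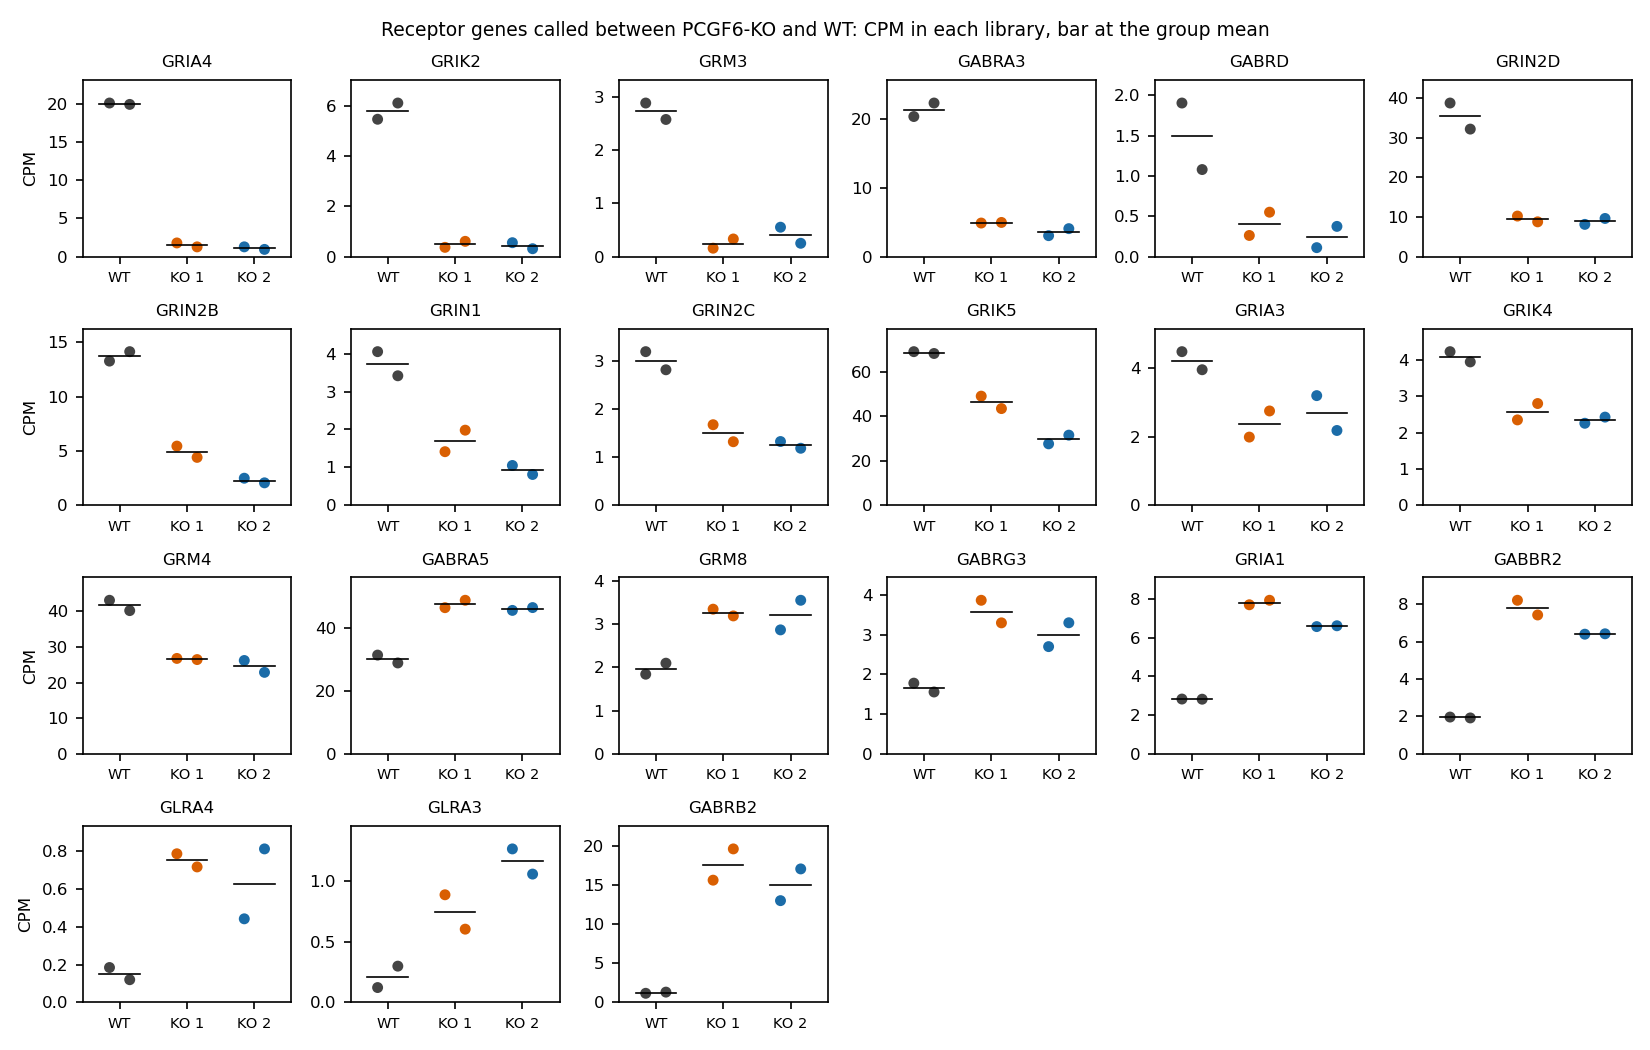
CPM (TMM scaled) of 21 of the 22 receptor genes called between PCGF6-KO and WT, with a point for each library and a bar at the group mean, for WT, clone 1 (KO 1) and clone 2 (KO 2). Each axis starts at 0. GRIA4 sits at 19.9 to 20.1 CPM in WT and 0.935 to 1.78 in PCGF6-KO, and GABRB2 at 1.17 to 1.32 and 13.0 to 19.6.

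Compared per length, in TPM, GABBR1 (70.7), GRIK5 (61.0), GABRA5 (32.4), GRIN2D (30.9) and GABRA3 (22.6) were among the most abundant members in WT. In PCGF6-KO the levels were 51.9 for GABBR1, 32.3 for GRIK5, 48.0 for GABRA5, 7.64 for GRIN2D and 4.30 for GABRA3. GABRB2 stood 33rd in WT, at 0.553 TPM, and 7th in PCGF6-KO, at 6.95. GRIA4 went the other way, from the 9th place at 8.82 TPM to the 28th at 0.554. Together the 46 genes summed to 396 and 389 TPM in the WT libraries and to 276 to 340 in the PCGF6-KO libraries, which did not overlap. The NMDA sum was 42.2 TPM in WT on average and 12.2 to 16.0 in PCGF6-KO, the AMPA sum 13.4 and 5.40 to 7.09, and the kainate sum 70.3 and 33.3 to 48.1. The GABA-A sum was 133 and 140 TPM in WT and 136 to 158 in PCGF6-KO, and these overlapped.

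GRIA1 to GRIA4 encode the AMPA receptor subunits, which carry most fast excitation in the brain. GRIA4, on chromosome 11 (105609535 to 105982090, forward strand, GRCh38), had 327 and 332 counts in WT, where clone 1 gave 34 and 23 and clone 2 gave 23 and 15. Every PCGF6-KO library was far below both WT libraries. GRIA4 fell from 20.0 ± 0.132 CPM (SD, n = 2) to 1.31 ± 0.348 CPM (n = 4), a log2 fold change of −3.91 (SE 0.20, adjusted p = 1.5e-06). GRIA1, on chromosome 5, had 2.83 and 2.82 CPM in WT, 7.69 and 7.92 CPM in clone 1 and 6.56 and 6.61 CPM in clone 2. It rose by 1.35 on the log2 scale (SE 0.18, adjusted p = 0.00043). GRIA3, on chromosome X, had 73 and 66 counts in the WT libraries, 38 and 50 in those of clone 1 and 58 and 35 in those of clone 2. Its log2 fold change was −0.74 (SE 0.24, adjusted p = 0.0383), a call that was lost in DESeq2, with the replicate block and on leaving out either WT library, either clone 1 library or clone 2 replicate 2 (adjusted p up to 0.214). GRIA2, whose edited subunit makes AMPA channels impermeable to calcium in neurons, had 0 counts in both WT libraries and 2 to 4 in the PCGF6-KO libraries, and was not tested.

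The changes of GRIA4 and GRIA1 turned the make-up of the AMPA transcripts around. GRIA4 made up 65.2 and 66.8% of the summed AMPA TPM in WT and 7.09 to 11.7% in PCGF6-KO. GRIA1 made up 12.1 and 12.5% in WT and 57.4 to 67.1% in PCGF6-KO. GRIA3 kept a similar share, 20.7 and 22.6% in WT and 20.4 to 33.0% in PCGF6-KO.

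**Figure D2:**
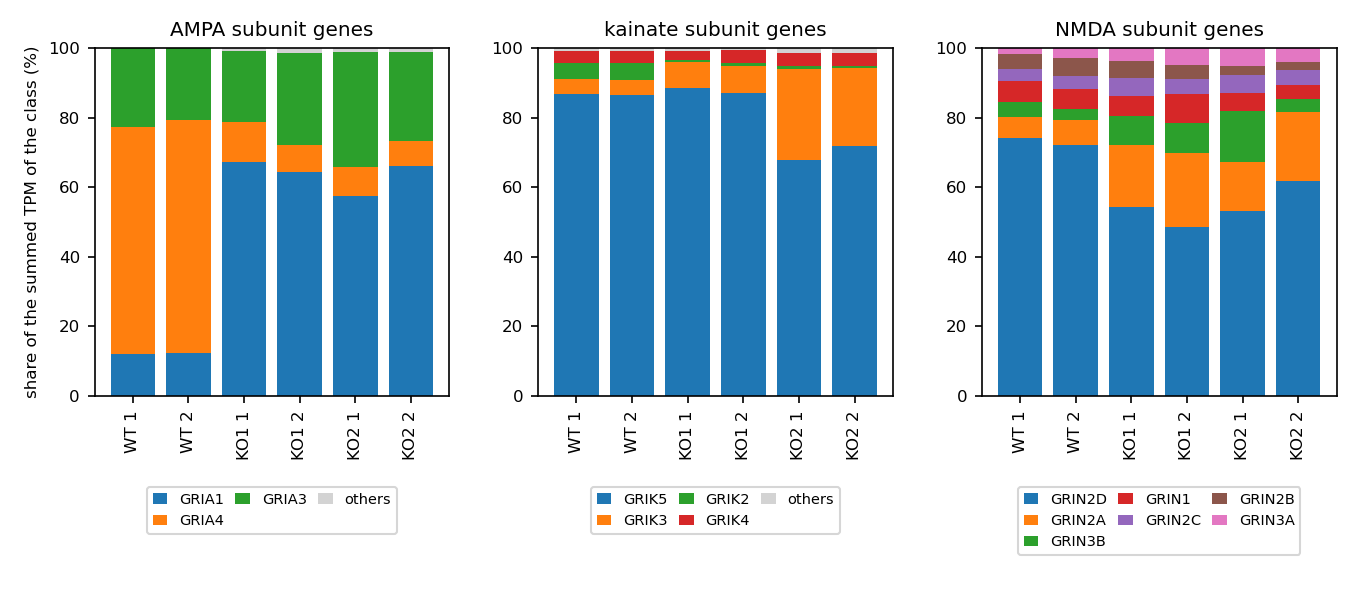
Share of each subunit gene in the summed TPM (counts per length) of its receptor class, in percent, as a stacked bar for each library of WT, clone 1 (KO1) and clone 2 (KO2). GRIA4 (orange, AMPA panel) fills 65.2 and 66.8% in WT and at most 11.7% in PCGF6-KO, where GRIA1 (blue) fills 57.4 to 67.1%.

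Kainate receptors, which tune transmitter release and excitability, are built from GRIK1 to GRIK3 with the high-affinity subunits GRIK4 and GRIK5. GRIK2 had 89 and 102 counts in WT, where clone 1 gave 7 and 11 and clone 2 gave 10 and 5. It fell by 3.63 on the log2 scale (SE 0.27, adjusted p = 1.37e-05), or 12.4-fold, and lies on chromosome 6 (100962701 to 102081622, forward strand). GRIK5, the most abundant of the class, had 1126 and 1140 counts in WT, against 939 and 791 in clone 1 and 501 and 506 in clone 2. The libraries of each line lay together and the 3 lines did not overlap. Its log2 fold change was −0.86 (SE 0.20, adjusted p = 0.00891). GRIK4 had 69 and 66 counts in the WT libraries, 45 and 51 in those of clone 1 and 41 and 39 in those of clone 2, with a log2 fold change of −0.73 (SE 0.19, adjusted p = 0.0169). The calls of GRIK5 and GRIK4 were lost without WT replicate 1 or WT replicate 2 (adjusted p up to 0.0651 and 0.12), and that of GRIK4 also in DESeq2. GRIK3 was not called (log2 fold change 1.12, SE 0.44, adjusted p = 0.0759), and its clones stood apart. It had 111 and 108 counts in WT, where clone 1 gave 163 and 141 and clone 2 gave 390 and 322.

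NMDA receptors need the subunit GRIN1 together with GRIN2 or GRIN3 subunits, and their calcium current is gated by magnesium. Of the 7 NMDA genes, 4 were called lower and 3 were not called (57.1% called lower, against 8.70% of all genes tested). GRIN2D, on chromosome 19 (48393668 to 48444931, forward strand), had 630 and 536 counts in WT, against 195 and 159 in clone 1 and 147 and 154 in clone 2. It fell from 35.4 ± 4.65 CPM (SD, n = 2) to 9.16 ± 0.922 CPM (n = 4), a log2 fold change of −1.95 (SE 0.12, adjusted p = 4.85e-06). GRIN2D is a subunit of the fetal brain, as is GRIN2B. GRIN2B had 216 and 236 counts in the WT libraries, 104 and 80 in those of clone 1 and 45 and 33 in those of clone 2, and a log2 fold change of −1.92 (SE 0.32, adjusted p = 0.00156). GRIN1 had 66 and 57 counts in WT, where clone 1 gave 27 and 36 and clone 2 gave 19 and 13 (−1.50 on the log2 scale, SE 0.32, adjusted p = 0.0063). GRIN2C, a subunit of cerebellar granule cells, had 52 and 47 counts in WT, against 32 and 24 in clone 1 and 24 and 19 in clone 2 (−1.12 on the log2 scale, SE 0.24, adjusted p = 0.00568). Without WT replicate 1 the calls of GRIN1 and GRIN2C were lost (adjusted p = 0.0643 and 0.0611).

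GRIN2A, the GRIN2 subunit that dominates in the adult forebrain, had 173 and 171 counts in the WT libraries, 212 and 226 in those of clone 1 and 127 and 163 in those of clone 2. These overlapped, and its log2 fold change was −0.04 (SE 0.21, adjusted p = 0.91). The share of GRIN2A in the summed NMDA TPM was 6.21 and 7.03% in WT and 14.0 to 21.1% in PCGF6-KO, while that of GRIN2D was 74.1 and 72.2% in WT and 48.7 to 61.7% in PCGF6-KO. GRIN3A and GRIN3B, which are among the subunits that bind glycine, had 6 to 33 counts in every library and adjusted p-values of 0.156 and 0.687.

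GRID1 belongs to the delta receptors, which bind cerebellins at synapses and do not open to glutamate. It had 11 to 20 counts in each library (log2 fold change 0.30, adjusted p = 0.516).

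The metabotropic receptors GRM2 to GRM4 and GRM6 to GRM8 couple to Gi proteins. Of 7 tested, 2 were called lower and 1 higher (42.9% called, against 23.6% of all genes tested). GRM3 had 47 and 43 counts in WT, against 3 and 6 in clone 1 and 10 and 4 in clone 2, and fell by 3.06 on the log2 scale (SE 0.38, adjusted p = 0.000302), or 8.32-fold. Of its exon bases, 18.9% are shared with GRM3-AS1 on the other strand, and the strand setting of the counting is not given in the sources used here, so its counts are uncertain. GRM4, the most abundant of the class, had 702 and 671 counts in the WT libraries, 512 and 481 in those of clone 1 and 475 and 367 in those of clone 2 (−0.70 on the log2 scale, SE 0.09, adjusted p = 0.000331). GRM8 had 30 and 35 counts in WT, where clone 1 gave 64 and 58 and clone 2 gave 52 and 57, and was higher by 0.71 on the log2 scale (SE 0.22, adjusted p = 0.0291). That call was lost in DESeq2, with no filter, and without WT replicate 1, WT replicate 2, clone 1 replicate 1 or clone 2 replicate 2 (adjusted p up to 0.185). GRM2, not called, had 120 and 96 counts in WT, against 108 and 81 in clone 1 and 93 and 69 in clone 2 (log2 fold change −0.42, adjusted p = 0.11). In CPM every PCGF6-KO library was below both WT libraries.

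GABA-A receptors mostly combine alpha and beta subunits with a gamma or delta subunit. Of the 11 subunit genes tested, 3 were called higher and 3 lower (54.5% called, against 23.6% of all genes tested). GABRB2 showed the largest rise among the 39 members tested. It had 19 and 22 counts in the WT libraries, 299 and 357 in those of clone 1 and 236 and 274 in those of clone 2. It went from 1.24 ± 0.107 CPM (SD, n = 2) to 16.3 ± 2.77 CPM (n = 4), a log2 fold change of 3.71 (SE 0.23, adjusted p = 4.85e-06), or 13.1-fold. GABRA3 had 331 and 372 counts in WT, where clone 1 gave 93 and 90 and clone 2 gave 55 and 65, and fell by 2.33 on the log2 scale (SE 0.18, adjusted p = 1.76e-05). GABRD, a subunit of receptors outside the synapse, had 31 and 18 counts in WT, against 5 and 10 in clone 1 and 2 and 6 in clone 2 (log2 fold change −2.18, SE 0.50, adjusted p = 0.00818). Its call was lost without WT replicate 1 (adjusted p = 0.125).

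Many GABA-A genes lie in clusters. GABRB2 lies on chromosome 5 (161288429 to 161549044, reverse strand), next to GABRA6, which had at most 1 count in any library.

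On chromosome 15, GABRA5 (26866911 to 26949208, forward strand) and GABRG3 (26971181 to 27541984, forward strand) lie side by side near the region of Angelman and Prader-Willi syndromes. GABRA5, an alpha subunit abundant in the hippocampus, had 513 and 484 counts in the WT libraries, 892 and 891 in those of clone 1 and 830 and 749 in those of clone 2. It was higher by 0.64 on the log2 scale (SE 0.08, adjusted p = 0.000249), and without WT replicate 2 it stayed under the fold change threshold (0.58). GABRG3 had 29 and 26 counts in WT, where clone 1 gave 74 and 60 and clone 2 gave 49 and 53 (log2 fold change 0.98, SE 0.24, adjusted p = 0.0117). It shares 8.61% of its exon bases with another gene, and its call was lost without WT replicate 1 or WT replicate 2 (adjusted p up to 0.104). Both were higher in each PCGF6-KO library than in both WT libraries.

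On chromosome 4 lie GABRG1, GABRA2, GABRA4 and GABRB1, all under 50 counts in every library. GABRG1 had 13 and 15 counts in WT, against 6 and 8 in clone 1 and 0 and 7 in clone 2 (adjusted p = 0.114), and GABRA4 had 11 and 19 in the WT libraries, 11 and 5 in those of clone 1 and 2 and 9 in those of clone 2 (adjusted p = 0.112). GABRA2 had 18 to 45 counts (adjusted p = 0.47). On chromosome X, GABRA3 (152166234 to 152451315, reverse strand) lies between GABRE and GABRQ, 2 further subunit genes. GABRE had 57 and 63 counts in WT, where clone 1 gave 62 and 89 and clone 2 gave 26 and 33, and GABRQ had 557 and 637 in WT, against 585 and 564 in clone 1 and 525 and 472 in clone 2. In PCGF6-KO against WT neither was called (log2 fold changes −0.32 and −0.27), and GABRA3 between them fell 5.03-fold. GABRE was called lower in clone 2 against WT (log2 fold change −1.07, adjusted p = 0.00191) and against clone 1 (−1.23, adjusted p = 0.00135).

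The GABA-B receptor is an obligate pair in which GABBR1 binds GABA and GABBR2 couples to the G protein. GABBR2, on chromosome 9, had 32 and 32 counts in the WT libraries, 157 and 135 in those of clone 1 and 116 and 103 in those of clone 2. It rose from 1.94 ± 0.0337 CPM (SD, n = 2) to 7.11 ± 0.875 CPM (n = 4), a log2 fold change of 1.87 (SE 0.20, adjusted p = 0.000125). GABBR1 had 2251 and 2187 counts in WT, where clone 1 gave 2169 and 2115 and clone 2 gave 1669 and 1460. Its log2 fold change of −0.38 (SE 0.11, adjusted p = 0.0239) was under the threshold of 0.6, and 8.54% of its exon bases are shared with other genes. In TPM, GABBR2 made up 1.55 and 1.6% of the pair in WT and 6.62 to 7.44% in PCGF6-KO.

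The glycine receptor genes had few counts. GLRA3 had 2 and 5 counts in WT, against 17 and 11 in clone 1 and 23 and 17 in clone 2, and GLRA4 had 3 and 2 in the WT libraries, 15 and 13 in those of clone 1 and 8 and 13 in those of clone 2. Each PCGF6-KO library was above both WT libraries for both genes. The summed counts gave a ratio of 4.48 (exact 95% interval 2.06 to 11.6) for GLRA3 and 4.52 (1.81 to 14.5) for GLRA4. The intervals cover counting error only and were computed after the calls, so they are not a separate test. Both genes had enough counts for the test in PCGF6-KO alone. Both were called higher (log2 fold changes 2.13, adjusted p = 0.0132 and 0.014), but GLRA3 not without WT replicate 1 (adjusted p = 0.124), and GLRA4 not without WT replicate 1, WT replicate 2 or in DESeq2 (adjusted p up to 0.122). GLRA4 shares 22.1% of its exon bases with other genes. GLRB, the beta subunit that anchors the receptor to gephyrin, had 15 and 13 counts in WT and 18 to 26 in the clones (log2 fold change 0.63, adjusted p = 0.157).

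The 7 members that were not tested were GRIA2, GRIK1, GRM5, GABRB1, GABRA6, GLRA1 and GLRA2, with at most 9 counts in any library. GABRA6, GLRA1 and GLRA2 had at most 3. A difference in these genes was not detectable at this depth.

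The clones were then compared with WT separately, in a fit with 3 groups. In clone 1 the test called 22 members, 9 higher and 13 lower, where it called 24.8% of all genes tested, 16.0% higher and 8.80% lower. In clone 2 it called 26, 9 higher and 17 lower, where it called 29.4% of all genes, 16.9% higher and 12.5% lower. In both clones 8 members were called higher and 13 lower, where the shares over all genes were 13.4% and 7.19%. The comparisons share the WT libraries. The 8 were GLRA3, GLRA4, GRIA1, GRM8, GABRB2, GABRA5, GABRG3 and GABBR2, and the 13 included GRIA3, GRIA4, GRIK2, GRIK4, GRIN1, GRIN2B, GRIN2C, GRIN2D, GRM3, GRM4, GABRA3 and GABRD. GRM6, with 7 and 9 counts in WT, where clone 1 gave 24 and 19 and clone 2 gave 21 and 9, was called in clone 1 (log2 fold change 1.24, adjusted p = 0.0341) and not in clone 2 (0.84, adjusted p = 0.171). GRIK3, GRIK5, GABRA4 and GABRG1 were among 5 members called in clone 2 and not in clone 1, and 12 members were called in neither. The call of GRM6 was lost in DESeq2 and without WT replicate 1, WT replicate 2 or clone 1 replicate 1, and those of GABRA4 and GABRG1 in DESeq2 and without WT replicate 2 or clone 2 replicate 1. Of the members called in both clones, GRM8, GRIK4, GRIA3, GABRA5, GABRG3, GRM4, GRIN2C, GLRA3, GLRA4 and GABRD also lost a call in at least 1 clone under at least 1 alternative, each of them on leaving out a library.

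**Figure D3:**
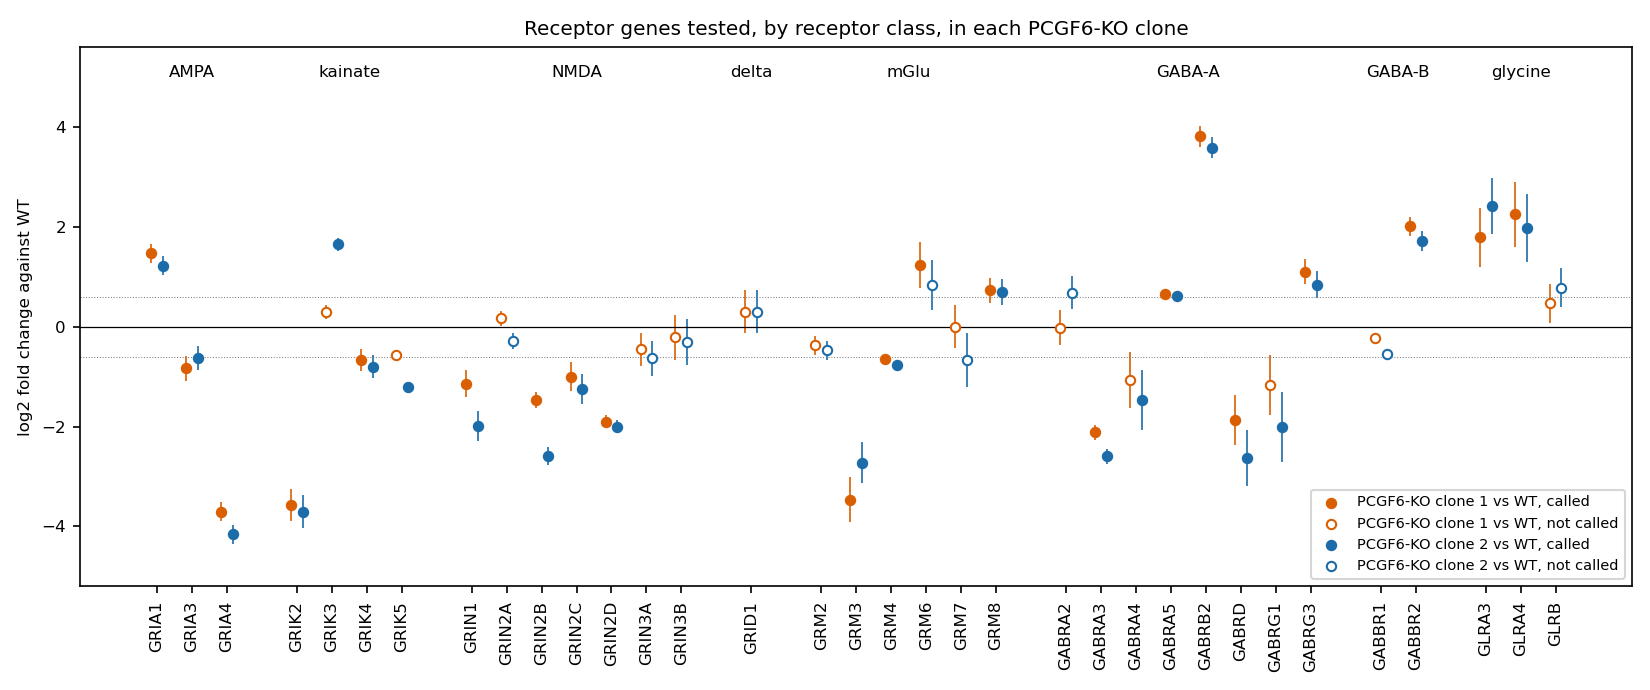
Log2 fold change against WT of 34 of the 39 receptor genes tested, by receptor class, in clone 1 (orange) and clone 2 (blue), with bars of 1 SE from the edgeR fit with 3 groups and filled points for called genes. Dotted lines mark the fold change threshold of 0.6. The clones lie close together for most genes, and GRIK3 stands at 0.29 in clone 1 and 1.65 in clone 2.

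Set against each other, the clones differed in 3 members (7.69% of 39), 1 higher and 2 lower in clone 2. Of all genes tested 7.87% differed, 3.73% higher and 4.14% lower, so the members' share was near that of all genes. GRIK3 was higher in clone 2 than in clone 1 by 1.35 on the log2 scale (SE 0.12, adjusted p = 7.77e-09), at 20.8 ± 1.02 CPM in clone 2 and 8.14 ± 0.544 CPM in clone 1 (SD, n = 2 each), where WT had 6.64 ± 0.244. GRIN2B was lower in clone 2 by 1.11 (−1.11 on the log2 scale, SE 0.21, adjusted p = 0.000309), so its fall was larger in clone 2 (−2.58) than in clone 1 (−1.47). GRIK5 was also lower in clone 2 (−0.65, SE 0.09, adjusted p = 7.28e-06), with −1.22 against WT in clone 2 and −0.57 in clone 1. The call of GRIK5 was lost without clone 1 replicate 1 or clone 2 replicate 1, where it came under the fold change threshold. Without clone 2 replicate 2 more members were called, and the share of all genes called was not computed for that fit. GRM6, GABRA4 and GABRG1, which were called against WT in 1 clone, were not called between the clones. PCGF6 counts were also higher in clone 2 than in clone 1, by 0.90 on the log2 scale (adjusted p = 5.44e-05), and the part of this in the receptor genes was not tested. GABBR1 and GRIN2A passed the adjusted p but not the fold change threshold between the clones, both lower in clone 2 (−0.33 and −0.46).

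Receptors work with other proteins, and 3 lists of these were tested in the comparison of PCGF6-KO with WT. The subunits of the GABA-A receptor that the rule for the 46 genes leaves out gave 1 call among 4 tested (a share near the 23.6% of all genes tested), with a median log2 fold change of −0.14. GABRR1, a rho subunit best known from the retina, had 15 and 25 counts in the WT libraries, 42 and 51 in those of clone 1 and 59 and 57 in those of clone 2 (log2 fold change 1.28, SE 0.31, adjusted p = 0.0116). Its call was lost without WT replicate 1 (adjusted p = 0.117).

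Of 40 auxiliary and scaffold genes tested, 9 were called higher and 12 lower (52.5%, against 23.6% of all genes tested), with a median of −0.21. The auxiliary subunits of AMPA receptors, which set their traffic and gating, were split. CNIH3 had 36 and 39 counts in WT, where clone 1 gave 374 and 356 and clone 2 gave 497 and 454 (log2 fold change 3.38, adjusted p = 8.74e-06), and CACNG4 had 88 and 88 in WT, against 552 and 546 in clone 1 and 1169 and 1009 in clone 2 (3.12, adjusted p = 0.000486). CACNG8, by contrast, had 339 and 327 counts in the WT libraries, 58 and 63 in those of clone 1 and 27 and 22 in those of clone 2 (−3.10, adjusted p = 7.22e-05). SHISA7, which binds GABA-A receptors, had 57 and 39 counts in WT, where clone 1 gave 16 and 26 and clone 2 gave 2 and 4 (−2.12, adjusted p = 0.0262). NETO2, an auxiliary subunit of kainate receptors, had 435 and 512 counts in WT. Clone 1 had 2226 and 2460 and clone 2 had 2572 and 2569 (2.27, adjusted p = 3.79e-06). CBLN2, a ligand of delta receptors, had 2 and 0 counts in WT and 6 to 18 in PCGF6-KO. The ratio in summed counts was 11.5 (exact 95% interval 3.03 to 97.8, which covers counting error only). CBLN2 had enough counts for the test in PCGF6-KO alone. It was called higher (adjusted p = 0.0132), but not without WT replicate 2 (adjusted p = 0.105). The call of SHISA7 was lost with the replicate block and without WT replicate 1 or WT replicate 2 (adjusted p up to 0.187).

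**Figure D4:**
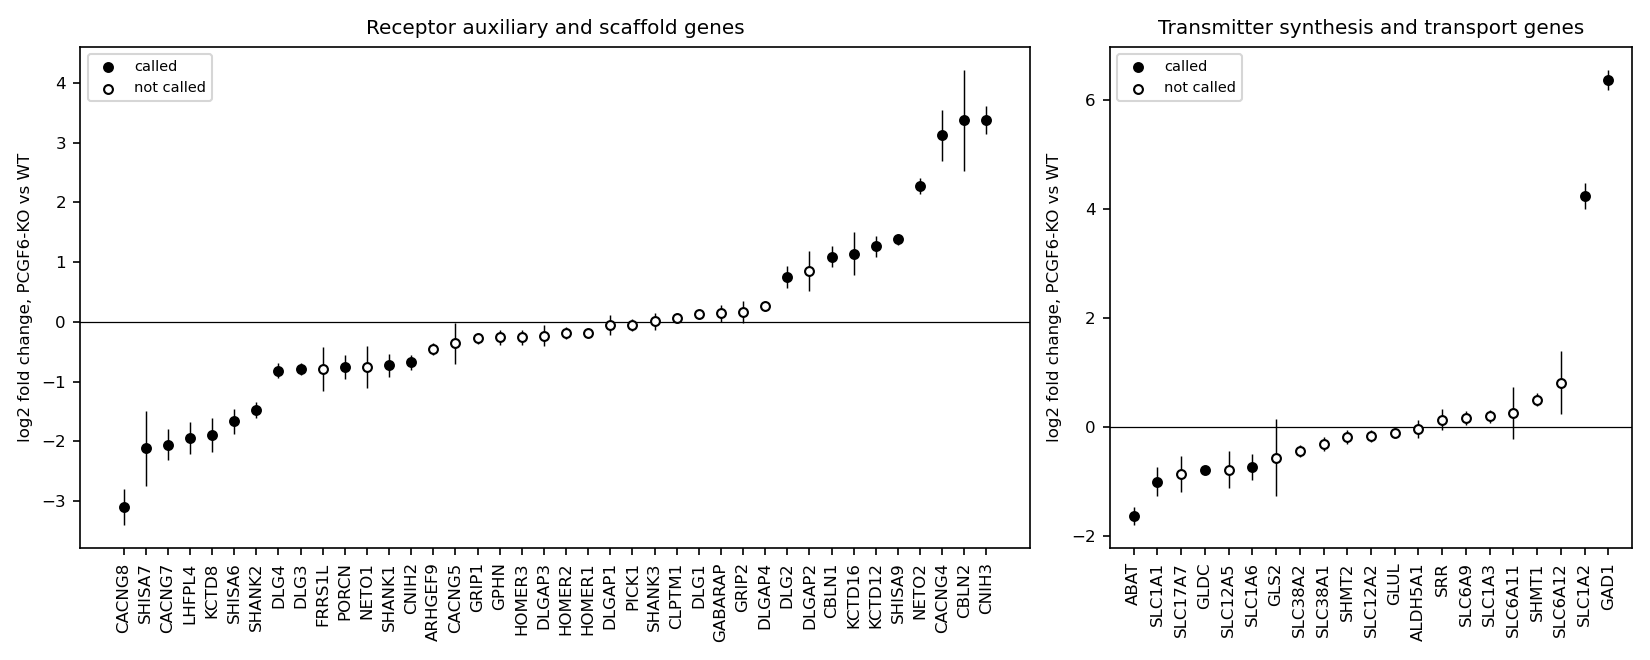
PCGF6-KO against WT, as log2 fold change, for the 40 auxiliary and scaffold genes and 21 of the 22 genes of transmitter synthesis and transport tested, sorted by value, with bars of 1 SE and filled points for called genes. CACNG8 (−3.10) and CNIH3 (3.38) stand at the ends of the left panel, and ABAT (−1.64) and GAD1 (6.37) at those of the right panel.

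Of 22 genes of transmitter synthesis and transport tested, 3 were called higher and 4 lower (31.8%, near the 23.6% of all genes tested), with a median of −0.14. GAD1, which makes GABA from glutamate, had 16 and 26 counts in the WT libraries, 2206 and 2091 in those of clone 1 and 1830 and 1491 in those of clone 2. It rose by 6.37 on the log2 scale (SE 0.19, adjusted p = 9.27e-08), from 1.27 ± 0.407 CPM (SD, n = 2) to 106 ± 11.1 CPM (n = 4), or 82.9-fold. ABAT, which breaks GABA down, had 277 and 300 counts in WT, where clone 1 gave 114 and 115 and clone 2 gave 77 and 94, and fell by 1.64 on the log2 scale (SE 0.16, adjusted p = 7.58e-05). SLC1A2, a glutamate transporter of astrocytes, had 16 and 15 counts in WT, against 282 and 309 in clone 1 and 325 and 354 in clone 2 (log2 fold change 4.24, SE 0.24, adjusted p = 2.76e-06). SLC1A1, a neuronal and epithelial glutamate transporter, was lower (−1.01, adjusted p = 0.0159), as was GLDC of the glycine cleavage system (−0.79, adjusted p = 3.15e-05). A gene on the other strand shares 7.41% of the exon bases of GAD1. Without WT replicate 1 or WT replicate 2, 4 genes of this list were called, and the call of SLC1A1 was among those lost (adjusted p up to 0.111).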

How the data were processed

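RNA-seq of WT, clone 1 and clone 2 (2 libraries each) was used, and the ChIP-seq samples were not analysed here. The authors trimmed reads with Trim Galore (0.6.2), aligned them to GRCh38 with HISAT2 (2.1.0), counted them per gene with featureCounts and deposited the raw counts. The annotation release, strand setting and handling of multi-mapped reads are not given in the sources used here.

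The filter on low counts was filterByExpr of edgeR, with genotype as the group and a minimum count of 10, and 17672 genes passed it. After TMM scaling, genes were tested with glmQLFit and glmQLFTest of edgeR (4.0.16, limma 3.58.1, R 4.3.3), with Benjamini-Hochberg adjustment over all tested genes. The common biological coefficient of variation was 0.12, and replicates differed by 2.4, 4.5 and 3.21 times the counting variance (chi-square per degree of freedom) in WT, clone 1 and clone 2. A standard error is the log2 fold change over the root of F. TPM was computed from the deposited counts and gene lengths. Genes were named if called in any comparison or with a mean of at least 50 counts, and of each other list at most 6 called genes with the largest change. The members and lists were chosen with earlier results of these data known. Positions and shared exon bases came from GENCODE 44, and promoter windows from RefSeq. The alternatives were RLE and upper-quartile scaling, DESeq2 (1.42.0), other filters and thresholds, the mean of the clones, the groups compared alone, the replicate block and leaving out each library. The fits were tested on simulated counts. Figures were drawn with matplotlib 3.10.9 in Python 3.11.15. Some genes entered every count and median but are not reported by name here, and the figures leave them out.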

Additional observations from a re-analysis of the deposited data

Results flagged for a closer look

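GRM4 had 22.9 CPM in clone 2 replicate 2 and 26.2 to 26.8 CPM in the other PCGF6-KO libraries, a gap of 0.851 of their whole range, which set this library apart from the rest. It was the only such case among the 39 members tested. Chance sets about 1 in 20 groups apart where all libraries come from a single population. The PCGF6-KO libraries come from clone 1 and clone 2, so that rate need not hold here. All 4 PCGF6-KO libraries were below both WT libraries.

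The effect against WT differed between the clones, by edgeR's test of the difference, for GRIK3 (clone 2 minus clone 1: 1.35 on the log2 scale), GRIN2B (−1.11) and GRIK5 (−0.649).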

How the results depend on the processing

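Of the 22 members called between PCGF6-KO and WT, 11 were called in the same direction under every alternative that gave a value (among them GRIA1, GRIA4, GRIK2, GRIN2B, GRIN2D, GRM3, GRM4, GABRA3, GABRB2 and GABBR2), and the other 11 were lost under at least 1. None of the 22 changed sign, and 5 of the 17 members not called were called under at least 1 alternative (among them GRIK3, GRM6, GABRA4 and GABRG1). Tested against a fold change of 1.5, the counts of calls fell to 14 for the receptor genes, 0 of the other GABA-A subunits (edgeR's main test called 1, with 2 at an unadjusted p under 0.05, and DESeq2 called 1), 13 auxiliary and scaffold genes and 4 genes of transmitter synthesis and transport in PCGF6-KO against WT, and to 14 in clone 1, 17 in clone 2 and 1 between the clones. With the adjusted p alone, the other GABA-A subunits gave 2 calls and the clones differed in 6 members. With at least 10 counts in every library, clone 2 had 17 calls, of fewer genes tested. On leaving out each library in turn, the receptor calls ranged from 12 to 22, those of the other GABA-A subunits from 0 to 1, of auxiliary and scaffold genes from 16 to 22, and of transmitter genes from 4 to 8, and the receptor calls from 15 to 22 in clone 1, 20 to 26 in clone 2 and 2 to 6 between the clones. A fit without 1 WT library assumes that the remaining WT library varies like the other groups. The share of all genes called was not computed for the alternatives. These counts therefore do not show whether the members' share changed against that of all genes. On leaving out each library, the log2 fold change of GRM7 ranged from −0.68 to 0.25, that of GRIN3B from −0.56 to 0.086 and that of GRIN2A from −0.14 to 0.12. GRM7 and GRIN3B turned higher in PCGF6-KO without WT replicate 1, and GRIN2A without clone 2 replicate 1, and none of the 3 was called. The cause of these shifts was not tested. Replicate numbers were shared between groups, but the deviations of same-numbered libraries over 15104 genes correlated at 0.042, 0.053 and 0.16, so the numbers were not taken as pairs. With the replicate block, 21 receptor genes were called, 8 higher and 13 lower, and GRIA3 lost its call (adjusted p = 0.0651). Low counts limit the members with few reads in a genotype, such as GLRA3, GLRA4, GRM3, GABRD, GABRG1 and GABRA4, and the 7 untested members.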
